A study of Homo sapiens with 16 samples.

Results

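The response of A549 cells to indisulam was measured in 4 of the 16 libraries of the study, 2 from cells given 3 µM indisulam for 16 h (labelled A549 IN) and 2 from untreated cells (A549 UT). These libraries were chosen by their labels, and every expressed gene was followed, 15744 of the 58676 gene identifiers once low genes had been removed. A549 is an established line from a human lung carcinoma and was grown in RPMI with fetal bovine serum, whatever the treatment. The other libraries used here came from A549 given 2 µM palbociclib (PD) or palbociclib with indisulam (P_I) for 16 h, and from SUM159, a triple-negative breast cancer line, untreated or given indisulam alone at the same dose and time. Libraries of SUM159 given palbociclib, alone or with indisulam, at the same doses and time entered only the fit of all 16 libraries. SUM159 was grown in another medium, with added insulin and hydrocortisone, so line and medium cannot be told apart. Poly(A) RNA was sequenced, and the values are counts of reads per gene. Each group holds technical duplicates of 1 line, so p-values measure only the spread between these samples, which may be technical.

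Indisulam binds DCAF15, the substrate receptor of a CUL4 ubiquitin ligase, and brings to it RBM39, a nuclear protein that helps the spliceosome choose exons. RBM39 is then ubiquitinated and destroyed by the proteasome, and many pre-mRNAs lose exons or keep introns. A message spliced in another way can lose its reading frame and be destroyed by nonsense-mediated decay, so a loss of splicing is visible partly as a change in the level of whole genes, although gene counts do not show which exons were used.

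RBM39 itself, whose protein is the target, was at 172 and 178 CPM in untreated libraries and rose to 367 and 362 CPM in treated ones, a log2 change of 1.06 ± 0.04 (SE). CPM are counts scaled to library size, here after edgeR TMM scaling, which evens out differences in composition. Since the drug acts on the protein, a higher message is no check of the labels. RBM23, a close relative that DCAF15 also takes up with indisulam, rose from 105 and 106 to 147 and 144 CPM (0.46 ± 0.04). DCAF15 was measured at 19.8 and 16.7 CPM untreated and 21.4 and 22.1 CPM treated, a difference that did not pass the test (edgeR quasi-likelihood, adjusted p = 0.0913). Among the other subunits and regulators of the ligase, COPS5 and CUL4B rose by 0.52 and 0.34 on the log2 scale, DDB1 fell by 0.19, and CAND1 did not pass the test.

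Both indisulam libraries were deeper than both untreated ones. Gene counts ran from 18306636 to 23851384 per library, so that 3 counts, taken here as the detection floor, corresponded to between 0.126 and 0.164 CPM. This floor is an allowance for counting error only. Reads outside annotated genes made up 4.02% and 4.57% of the reads listed in untreated libraries and 5.70% and 5.97% in indisulam libraries. The groups did not overlap in this share, and with 2 against 2 the smallest exact two-sided p is 0.333. The level of 3 counts given above and the marker levels that follow are CPM on total gene counts, without TMM scaling. The epithelial keratins KRT8 and KRT18 lay between 4000 and 5120 CPM in the 4 libraries, while of 10 markers of alveolar type II cells 3 were at 0 in all of them (SFTPA1, SFTPA2 and SFTPB) and the summed level, 74 and 72 CPM untreated and 55.6 and 54.6 CPM with indisulam, came almost wholly from ABCA3. Markers of fibroblasts, endothelium and blood cells summed to between 9.07 and 11.3 CPM. Most of this sum came from CD14 (4.97 to 6.75 CPM) and COL1A1 (3.21 to 3.4 CPM), while COL1A2, COL3A1 and CD3E were at 0. In bulk RNA, fewer cells of a kind and less RNA per cell cannot be told apart.

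The first question was which genes changed. Of the 15744 genes tested, 49.2% passed an adjusted p of 0.05 (23.3% higher and 25.9% lower with indisulam), and 8.19% passed it with a change of at least 2-fold (3.17% higher and 5.02% lower). With at least 10 counts required in every library the second number dropped from 1289 to 717 genes, 203 higher and 514 lower. In 76.3% of all genes the 2 treated and the 2 untreated libraries did not overlap, so that a lack of overlap alone says little here. The median change over all genes was 0.01 on the log2 scale.

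The 12 largest decreases were taken from protein-coding genes whose level averaged 5 CPM or more. CYP4V2, a fatty acid hydroxylase, was at 8.88 and 9.97 CPM in untreated libraries and 1.16 and 1.35 CPM with indisulam, a fall by 2.90 ± 0.17 on the log2 scale (edgeR, adjusted p = 5.72e-09). CENPI, a protein of the inner kinetochore, went from 37.7 and 37.4 to 7.95 and 6.77 CPM (-2.35 ± 0.09, adjusted p = 1.49e-10), and CENPK, a partner in the same assembly, from 49.8 and 48.8 to 12.9 and 12.4 CPM (-1.97 ± 0.07). SLC7A11, the cystine importer that feeds glutathione synthesis, went from 364 and 406 to 86.7 and 94.2 CPM (-2.09 ± 0.06, adjusted p = 6.47e-12) and was by far the most abundant of the 12. Both treated libraries lay well below both untreated ones in each of these genes, which were chosen for large falls in both duplicates. The groups did not overlap in 76.3% of all genes. The other 8 were R3HDM2 (-2.39), the mitochondrial carrier SFXN2 (-2.25), the ubiquitin ligase RNF170 (-2.15), the NAD-consuming ectoenzyme CD38 (-2.03), the clock transcription factor BMAL2 (-2.02), the kinase CDKL1 (-1.98), the folate enzyme DHFR2 (-1.97) and the olfactory receptor OR51E2 (-1.95). CENPI, CENPK, SFXN2 and CD38 overlap no other annotated gene; the rest overlap at least 1, and since the strand setting of the counting is not given in the sources used here, reads of a neighbour could be included in them. The same holds for those of the genes named below that overlap another; 4351 of the genes tested overlap none.

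The 12 largest increases held PTBP2, PRPF3 and HNRNPL, which act in splicing. PTBP2, the neuronal form of a protein that represses exons, was at 23.6 and 23.4 CPM untreated and 109 and 106 CPM with indisulam (2.19 ± 0.06, adjusted p = 6.47e-12 by edgeR). PRPF3, a protein of the U4/U6 small nuclear ribonucleoprotein, rose from 51.1 and 55.6 to 127 and 125 CPM (1.24 ± 0.06), and HNRNPL, a regulator of exon choice, from 243 and 234 to 561 and 563 CPM (1.24 ± 0.04). Duplicates of these genes lay close together and far from the other group, as the choice of the largest changes favours. The remaining increases were those of YY2 (2.15), the hormone AMH (1.97), the vesicle coat protein SEC31B (1.93), the Rag GTPase RRAGB (1.92), ZNF557 (1.54), BNC2 (1.37), the oxytocin receptor OXTR (1.36), the mitochondrial import protein PAM16 (1.28) and ZC3H6 (1.28). Of the 12, PTBP2, RRAGB, ZNF557 and PRPF3 overlap no other gene, and HNRNPL, YY2, AMH, SEC31B and PAM16 share bases with a gene on their own strand.

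**Figure D1:**
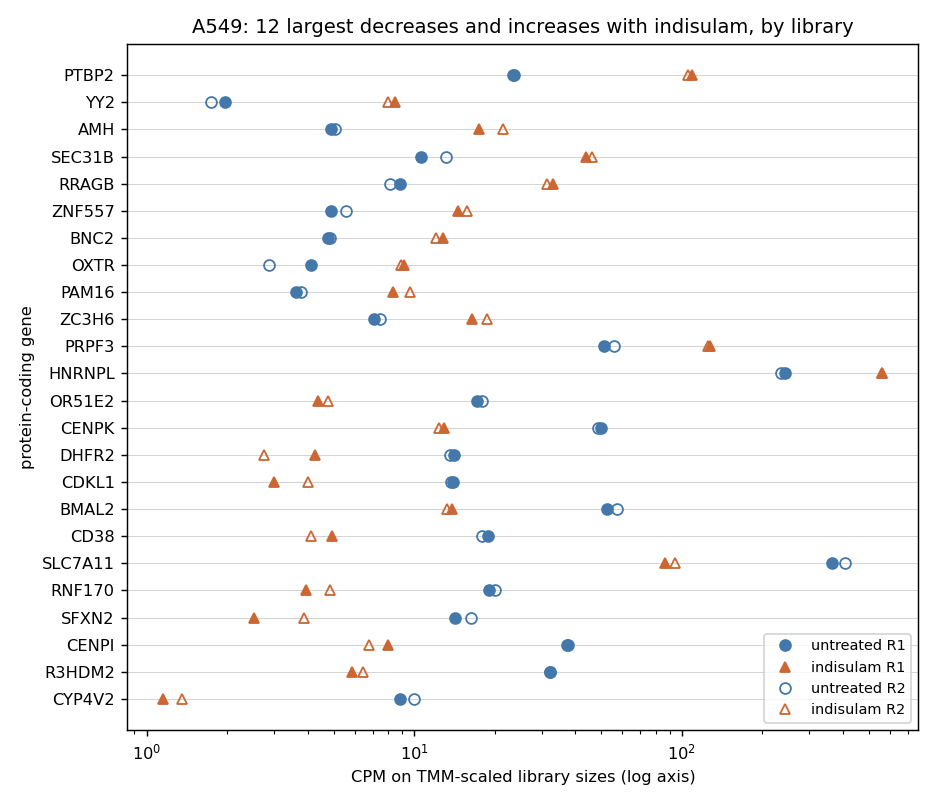
Level of the 12 protein-coding genes with the largest increases (top) and the 12 with the largest decreases (bottom) in each of the 4 A549 libraries, in CPM on a log axis; circles are untreated and triangles indisulam libraries, filled for R1 and open for R2. In all 24 genes the 2 treated libraries lie on 1 side of the 2 untreated ones, as they do in 76.3% of all genes tested.

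Among other biotypes the largest decreases were those of the pseudogene FAM86JP (9.09 and 9.69 to 1.37 and 1.09 CPM, -2.92), the long noncoding RNAs LINC00707 (-2.15) and CCDC18-AS1 (-2.02), and CRYZL2P (-1.81). PKD1P6 (1.61), SDHAP4 (1.28) and HTR7P1 (1.19) were among those that rose most. Pseudogenes share sequence with their parent genes, and these 7 genes all overlap another gene, so that their counts are uncertain. Of 1753 long noncoding RNAs tested, 18% were higher and 16.8% lower, against 23.3% and 25.9% of all genes. With a change of at least 2-fold the shares were 9.87% and 10.2%, against 3.17% and 5.02% of all genes. The median level of the long noncoding RNAs was 0.998 CPM, against 17.5 CPM over all genes, and the part of this level in the shares was not tested.

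Most genes listed for the unfolded protein response, which serves to fold and clear proteins in the endoplasmic reticulum, fell. This response is run by the sensors ATF6, ERN1 (IRE1) and EIF2AK3 (PERK). The first of these, with the factor XBP1 that IRE1 splices, raises chaperones. Of the 25 genes listed for the response, 19 fell and 1 rose, against 25.9% lower and 23.3% higher of all genes, and the median change was -0.38 on the log2 scale. The least abundant of them, CRELD1, was still at 15.8 and 12.6 CPM untreated and fell by 0.85 on the log2 scale.

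The chaperones of the list differed in how far they fell. HSPA5 (BiP), the main chaperone of the compartment, was at 702 and 698 CPM untreated and 410 and 403 CPM with indisulam, a fall by 0.78 ± 0.04 (edgeR, adjusted p = 7.98e-10). HYOU1, its nucleotide exchange factor, went from 207 and 206 to 83.0 and 91.8 CPM (-1.24 ± 0.06, adjusted p = 5.02e-10), the lowest value of the list. The lectin chaperone calreticulin (CALR) went from 780 and 770 to 486 and 476 CPM (-0.69 ± 0.04). In these 3 genes the treated libraries lay below the untreated ones by many times the gap between duplicates. The groups did not overlap in 76.3% of all genes. HSP90B1 (GRP94) stood at 1888 and 1912 CPM untreated and 1805 and 1803 CPM treated (-0.07 ± 0.04, adjusted p = 0.118) and did not pass the test. HSPA5, CALR and HSP90B1 were chosen for display after their values were seen.

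Members that clear misfolded proteins were divided. EDEM1, which hands glycoproteins over for destruction, went from 83.3 and 83.4 to 45.7 and 44.3 CPM (-0.89 ± 0.05), and HERPUD1, a scaffold of the export channel, from 65.5 and 61.4 to 47.2 and 45.2 CPM (-0.46 ± 0.05). DERL1 fell by 0.60 on the log2 scale, whereas DERL2, a relative of DERL1 in the same channel, rose by 0.23. The ubiquitin ligase SYVN1 and its partner SEL1L did not pass the test (-0.05 and 0.05). Of the regulators, XBP1 fell by 0.40 and ATF6 by 0.22, and ERN1 was at 34 and 32.7 CPM untreated and 33.9 and 30.9 CPM treated, a difference that did not pass.

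**Figure D2:**
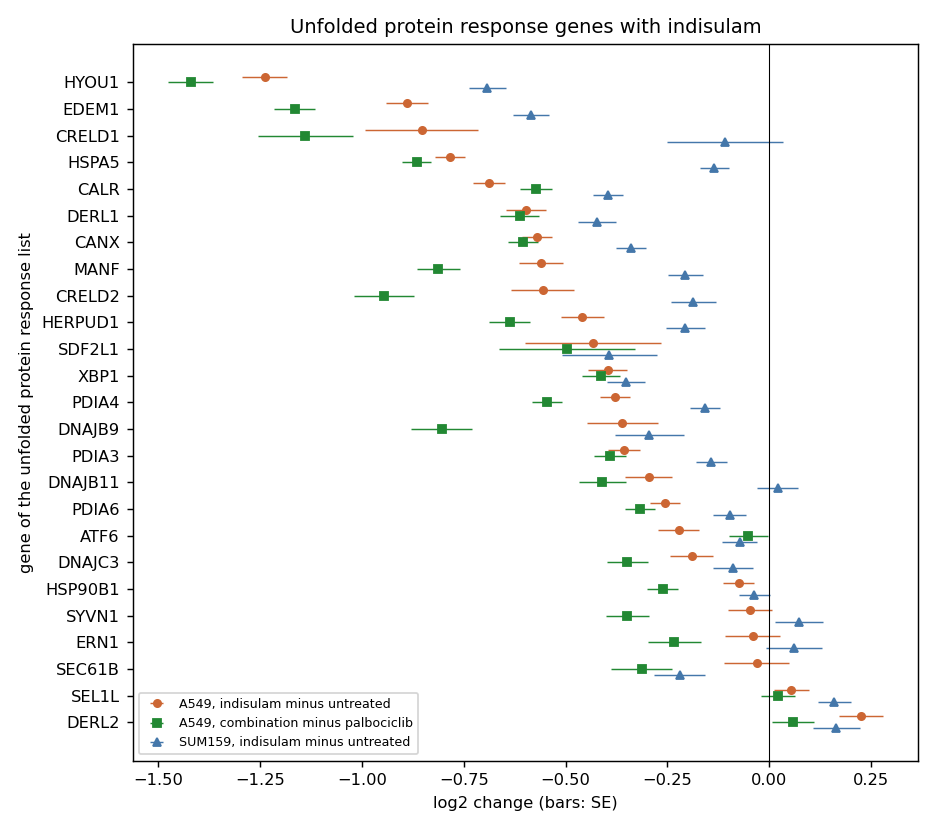
Log2 change (points) with its standard error (bars) of the 25 unfolded protein response genes in A549 with indisulam against untreated (circles), in A549 with the combination against palbociclib (squares) and in SUM159 with indisulam against untreated (triangles). In A549 HYOU1 and EDEM1 lie farthest below zero and DERL2 lies above it, and most SUM159 points lie nearer to zero than the A549 points of the same gene.

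The integrated stress response, in which kinases phosphorylate eIF2 and ATF4 raises genes of amino acid supply, also held more lower than higher genes. Of 37 genes listed, 23 fell and 5 rose (62.2% and 13.5%, against 25.9% and 23.3% of all genes), with a median of -0.28. ATF4 itself went from 359 and 343 to 313 and 320 CPM (-0.15 ± 0.04, adjusted p = 0.00921 by edgeR), a call that was lost without untreated R1 (-0.11, adjusted p = 0.117) or indisulam R1 (-0.13, adjusted p = 0.0895). Besides SLC7A11, the largest decreases were in the mitochondrial folate enzyme ALDH1L2, from 29.7 and 35.4 to 8.98 and 9.04 CPM (-1.85), and in the lipoprotein receptor VLDLR, from 41.1 and 42.2 to 16.9 and 18.6 CPM (-1.23). Of the serine and folate enzymes, PSPH (-0.90), SHMT2 (-0.57), PSAT1 (-0.45) and MTHFD2 (-0.33) fell and PHGDH did not pass the test (-0.06). Of the tRNA synthetases, IARS1 (-0.86), EPRS1 (-0.80), MARS1 (-0.58), GARS1 (-0.53), CARS1 (-0.46) and AARS1 (-0.39) fell, WARS1 fell by 0.20, and NARS1, SARS1 and YARS1 did not pass. The call of WARS1 was lost without untreated R1 (-0.16, adjusted p = 0.061 by edgeR) and without indisulam R2 (-0.16, adjusted p = 0.0641 by edgeR). These enzymes are named after their values were seen.

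The 5 members that rose were the repressor ATF3, from 8.11 and 6.93 to 16.9 and 15.5 CPM (1.10), the chromatin protein NUPR1, from 6.50 and 5.35 to 12.4 and 11.1 CPM (0.98), the RNA-activated kinase EIF2AK2 (0.35), the amino acid importer SLC7A5 (0.34) and the phosphatase subunit PPP1R15A (0.23). The call of PPP1R15A was lost without untreated R2 (0.18), indisulam R1 (0.24) or indisulam R2 (0.22). The other eIF2 kinases listed, EIF2AK4 (-0.69), EIF2AK3 (-0.28) and EIF2AK1 (-0.21), fell, and they are named after their values were seen. DDIT3 (CHOP), the pro-death factor of the pathway, stood at 8 and 8.45 CPM untreated and at 7.78 and 8.91 CPM with indisulam, overlapping between groups. SLC3A2, which forms the importer's heavy chain for both SLC7A5 and SLC7A11, did not pass the test (0.12). The list of cytosolic chaperones showed no such decrease. It held 9 higher and 6 lower of 30 (median 0.04), beside 23.3% higher and 25.9% lower of all genes. HSPB8 (0.59), DNAJB2 (0.42) and HSPA4 (0.29) rose most in that list, and STIP1 (-0.42), CCT7 (-0.36) and HSPA4L (-0.30) fell most.

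Because RBM39 works with the spliceosome, the messages of the splicing machinery were described next. Core spliceosome genes were more often higher than lower, 36 against 6 of 69 (52.2% against 8.70%, with a median of 0.16). Of all genes 23.3% were higher and 25.9% lower. After PRPF3, PRPF39 rose most, from 35.3 and 37.5 to 78.2 and 78.5 CPM (1.11), followed by the branch point protein SF1, from 339 and 328 to 563 and 546 CPM (0.73). The 3 largest decreases were those of BCAS2 (-0.64), the GTPase EFTUD2 (-0.52) and SNRNP40 (-0.42). SR and SR-like proteins, which bind exonic enhancers, held 17 higher and 4 lower of 32, with LUC7L (0.89), RSRP1 (0.54) and SREK1 (0.52) rising most and TRA2B at 248 and 244 CPM untreated and 192 and 180 CPM treated (-0.40). The hnRNPs and related regulators were split, 22 higher and 24 lower of 64. In that list RBM14 fell from 99.1 and 90.5 to 34.9 and 34 CPM (-1.46), the epithelial regulator ESRP1 fell by 1.29 and the paraspeckle protein PSPC1 by 1.02, while PTBP2 and HNRNPL rose. RBM4, which is annotated together with RBM14 in a readthrough gene, rose from 8 and 9.91 to 14.1 and 14.5 CPM (0.68). Of the 12 minor spliceosome genes 5 rose, led by RNPC3 (0.82), and 3 fell, led by SNRNP48 (-0.59).

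**Figure D3:**
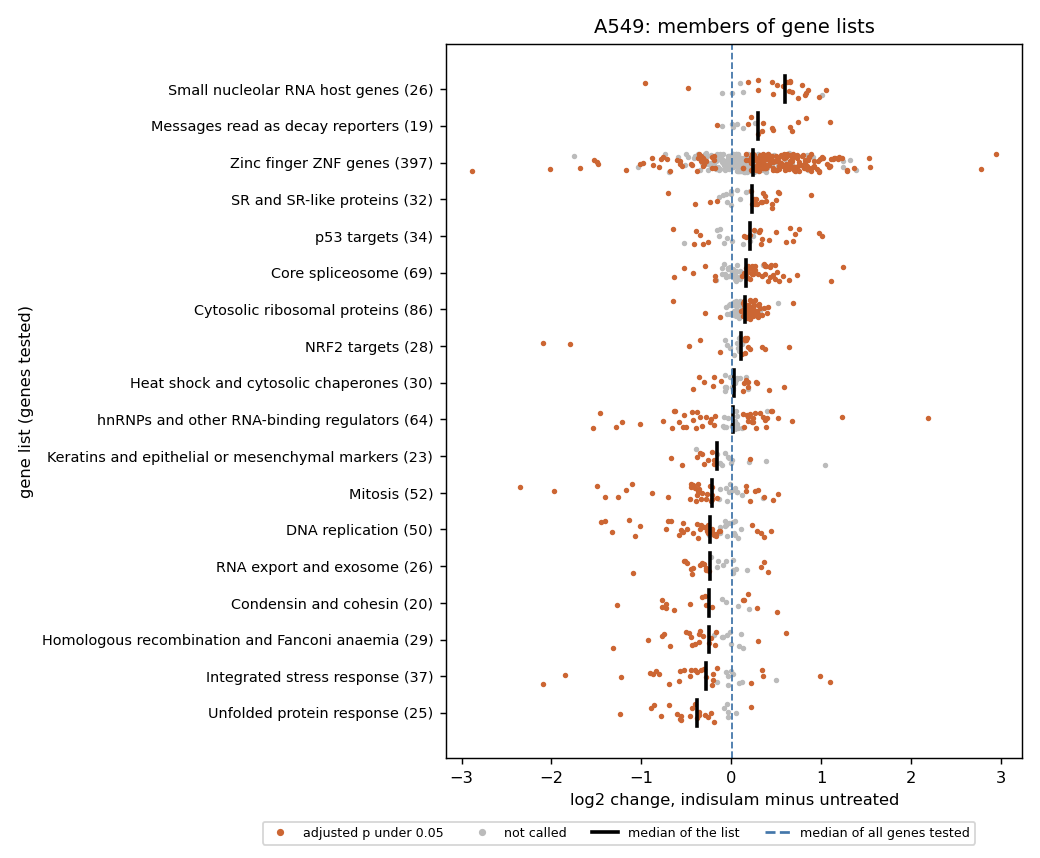
Log2 change of each member (points) of 18 gene lists in A549 with indisulam against untreated, with the number of genes tested in brackets; orange points passed the test, grey points did not, black ticks are list medians and the dashed line is the median of all genes tested. The small nucleolar RNA host genes have the highest median (0.60) and the unfolded protein response genes the lowest (-0.38) of those plotted.

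Later steps of message handling moved unequally. PAPOLA, the main poly(A) polymerase, went from 431 and 418 to 180 and 172 CPM (-1.27 ± 0.04, adjusted p = 6.08e-11 by edgeR), and the cleavage factor CSTF2 fell by 0.72. Of the 22 genes of cleavage and polyadenylation 6 fell and 7 rose (27.3% and 31.8%, near the 25.9% and 23.3% of all genes), PABPN1 most (0.49). The cap-binding complex divided, NCBP1 falling from 86.4 and 79.5 to 38.8 and 39.0 CPM (-1.09) and NCBP2 rising from 74.3 and 74.1 to 102 and 95.3 CPM (0.41). Export and exosome genes as a list held 13 lower and 3 higher of 26. Genes of nonsense-mediated decay held 8 higher and 1 lower of 21, CASC3 (0.43) rising most.

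Messages commonly read as reporters of that decay, because their spliced forms are its substrates, were higher in 12 of 19 and lower in 1, ATF4. Their median was 0.30, and of all genes 23.3% were higher and 25.9% lower. The small nucleolar RNA host genes, whose spliced messages are mostly decay substrates, held 19 higher and 2 lower of 26, with a median of 0.60, against 0.01 over all genes; 10 of them, GAS5 and SNHG1 included, are also among the 19 reporters. SNHG1 was at 105 and 112 CPM untreated and 197 and 191 CPM treated (0.83), GAS5 at 121 and 129 and then 206 and 212 CPM (0.74), and SNHG26 rose by 1.05. Both treated libraries of each lay above both untreated ones, and in 76.3% of all genes the groups did not overlap. SNHG14, which hosts clusters of imprinted small nucleolar RNAs, went the other way, from 29.4 and 29.4 to 15.1 and 15.2 CPM (-0.96). Host genes contain other annotated genes by nature, and how the counting assigned reads in them was not tested.

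Within the machines of DNA replication and division, parts of 1 assembly changed in opposite directions. Of 50 replication genes 31 fell and 5 rose (62.0% and 10.0%, against 25.9% and 23.3% of all genes, median -0.23). The helicase factor CDC45 fell from 43.6 and 40.0 to 15.7 and 15 CPM (-1.45), the primase-associated polymerase POLA1 from 82.7 and 90.5 to 33.2 and 32.4 CPM (-1.40), and POLE2 by 1.33. Of the subunits of the origin recognition complex, ORC1 (0.45) and ORC6 (0.33) rose, ORC2 (-0.71), ORC3 (-0.30) and ORC5 (-0.73) fell, and ORC4 did not pass the test. ORC2 to ORC5 are named after their values were seen, and the call of ORC3 was lost without untreated R1 (-0.21, adjusted p = 0.0977 by edgeR) and without indisulam R1 (-0.22, adjusted p = 0.0887 by edgeR). In the supply of deoxynucleotides 6 of 11 genes fell, among them TYMS, from 202 and 202 to 98.1 and 95.5 CPM (-1.06), RRM2 (-0.91) and DTYMK (-0.91), while RRM2B and DCTD rose by 0.33 and 0.29.

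Of 52 mitotic genes 31 fell and 8 rose (59.6% and 15.4%, against 25.9% and 23.3% of all genes, median -0.22). At the kinetochore CENPI, CENPK and CENPM (18.1 and 19.5 to 6.80 and 6.59 CPM, -1.49) fell, whereas SPC24 (0.52), the DNA-binding CENPC (0.46) and NDC80 (0.37) rose. Condensin lost NCAPH, from 77.7 and 75.6 to 31.7 and 31.8 CPM (-1.27), together with NCAPG2 (-0.77) and NCAPD2 (-0.77), while the cohesin subunit STAG2 and the loader MAU2 rose by 0.29 and 0.51. The kinesins KIF2A, which shortens microtubules, and KIF20B fell by 1.68 and 1.18. Homologous recombination and Fanconi anaemia genes were lower in 18 of 29 and higher in 2, with FANCI at 258 and 257 CPM untreated and 98.3 and 108 CPM treated (-1.32), its partner FANCD2 at -0.92, and RAD51D (0.61) rising most. Of the checkpoint genes, ATR (-0.69), PRKDC (-0.65) and TOPBP1 (-0.52) fell and HUS1 rose from 18.3 and 18.8 to 36.8 and 35.2 CPM (0.96). Among the RB family RBL1 (p107) fell from 41.6 and 43.3 to 15.7 and 16.9 CPM (-1.38) and RB1 fell by 0.43. Of 9 tested members of the CDK-activating kinase and TFIIH, 3 rose and 3 fell (median 0.04). The 2 that fell at least 2-fold, against 5.02% of all genes, were CCNH (-1.54) and GTF2H1, which went from 41.8 and 40.0 to 19.8 and 17.4 CPM (-1.14), while GTF2H5 (0.46) and CDK7 (0.30) rose.

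Other groups of A549 biology moved in part, beside 23.3% higher and 25.9% lower of all genes. Of 34 p53 targets 17 rose and 6 fell (median 0.21), CCNG1 going from 126 and 130 to 249 and 254 CPM (0.98) and the death receptor EDA2R from 5.94 and 5.24 to 11.8 and 10.7 CPM (1.01), while the repair genes XPC (-0.64), POLH (-0.41) and DDB2 (-0.39) fell. BAX, the pore-forming death protein, rose from 66.9 and 63.2 to 104 and 101 CPM (0.66). A549 cells carry a defective KEAP1 and thus high NRF2 activity; of 28 NRF2 targets 12 rose and 5 fell, the transporter ABCC3 falling from 589 and 614 to 172 and 176 CPM (-1.79) and the glutathione enzyme GCLC rising from 284 and 293 to 454 and 445 CPM (0.64). Keratins and epithelial or mesenchymal markers held 10 lower, such as CDH1 (E-cadherin, -0.55), and 1 higher of 23. NDUFS1, the largest subunit of respiratory complex I, went from 112 and 110 to 49.9 and 48.2 CPM (-1.18), although 12 of 37 nuclear genes of that complex rose and 5 fell. In lipid synthesis ACACA (-1.05) and SREBF2 (-0.82) fell and HMGCS1 (0.45) and INSIG1 (0.40) rose. The autophagy genes ATG7 (-1.12) and BECN1 (-0.58) fell and ULK1 (0.83) and GABARAPL1 (0.72) rose.

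Among large gene families, cytosolic ribosomal protein genes were higher in 55 of 86 and lower in 3 (median 0.16), beside 23.3% higher and 25.9% lower of all genes. These ribosomal genes took 5.31% and 5.18% of gene counts in untreated libraries and 5.91% and 5.91% with indisulam. Many have processed pseudogenes that can take or give reads. Zinc finger genes named ZNF were higher in 155 of 397 and lower in 38 (median 0.24), with ZNF227 going from 16.4 and 18.2 to 40.7 and 40.6 CPM (1.23) and ZNF43 from 5.27 and 4.34 to 0.641 and 0.655 CPM (-2.88). The median of each list named so far kept its sign when libraries were scaled to total counts or by DESeq2 size factors.

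Gene structure was then set beside the changes, since each exon is a place where splicing can fail. Among 13085 protein-coding genes, 24.3% were higher and 28.1% lower. The share of lower genes was 5.11% of the 274 genes with 1 exon in the canonical transcript, 19% with 2 to 4 exons, 23.9% with 5 to 9, 32.9% with 10 to 19 and 40.2% of the 2088 genes with 20 or more. The share of higher genes was 32.5%, 24.9%, 27.8%, 23.2% and 18% in the same order, lowest with 20 or more exons but without a steady fall. The median change went from 0.17 with 1 exon to -0.12 with 20 or more. Genes with more exons were also more abundant, with a median of 38.7 CPM with 20 or more against 7.65 CPM with 1, and the part of abundance in these shares was not tested further than by a minimum level. With at least 5 CPM the lower share still ran from 7.69% to 43.2%. The higher and lower shares were also taken with scaling to total counts. Under that scaling or the minimum level, 15 of 20 shares left the binomial confidence interval of the reported share.

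Exon number goes along with the span of a gene. When genes were put into 5 equal groups by span, lower genes made up 17.4% of the shortest and 34.7% of the longest group, and by transcript length 23.0% and 31.8%. Among the genes of the longest span (of 3 equal groups), 26.3% of the 293 with 1 to 4 exons and 38.4% of the 3204 with 10 or more were lower, and among those of the shortest span 14.5% and 25.4%. These shares are descriptions over genes, which are not replicates. Of genes that overlap no other annotated gene 25% were higher and 22.6% lower, and of those that overlap a gene on their own strand 22.8% and 27.8%.

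**Figure D4:**
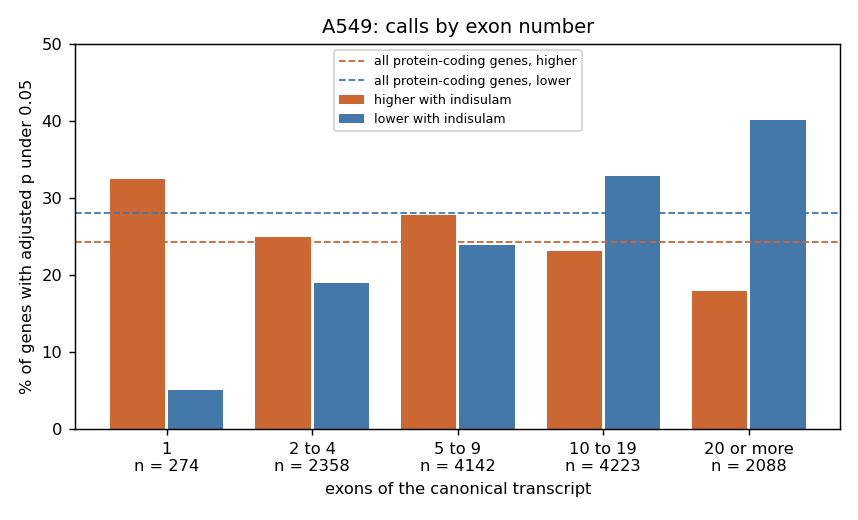
Percentage of protein-coding genes called higher (orange) or lower (blue) with indisulam in A549, by the number of exons of the canonical transcript, with the number of genes under each group and the shares over all protein-coding genes as dashed lines. The lower share goes from 5.11% with 1 exon to 40.2% with 20 or more. The higher share is 32.5%, 24.9%, 27.8%, 23.2% and 18% from left to right.

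Indisulam was also given to cells treated with palbociclib, an inhibitor of CDK4 and CDK6, so that the same drug could be read in 4 A549 libraries the comparison had not used (P_I against PD, fitted with the same estimate of the spread). Of all genes 51.5% were called there (23.7% higher and 27.8% lower). Of the 1289 genes that indisulam alone changed at least 2-fold, 97.4% had the same sign and 78.6% had the same sign and passed the test, 63.5% of the 499 that rose and 88.1% of the 790 that fell. Of the 7996 genes not called with indisulam alone, 67.6% had the same sign and 22.8% had the same sign and passed. Both sizes were close for the genes that fell, with medians of -1.38 alone and -1.28 with palbociclib, and less so for those that rose, 1.42 and 1.01. The part that choosing genes by the first value has in this drop was not tested. Over all genes Pearson's r between the log2 changes was 0.81 and Spearman's rho 0.79, across genes, which are not independent. The unfolded protein response list had a median of -0.50 there, with HSPA5 at -0.87, HYOU1 at -1.42 and HSP90B1, which then passed the test, at -0.26. SLC7A11 (-2.14), PTBP2 (2.38), PRPF3 (1.44) and PAPOLA (-1.18) had values near those without palbociclib.

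**Figure D5:**
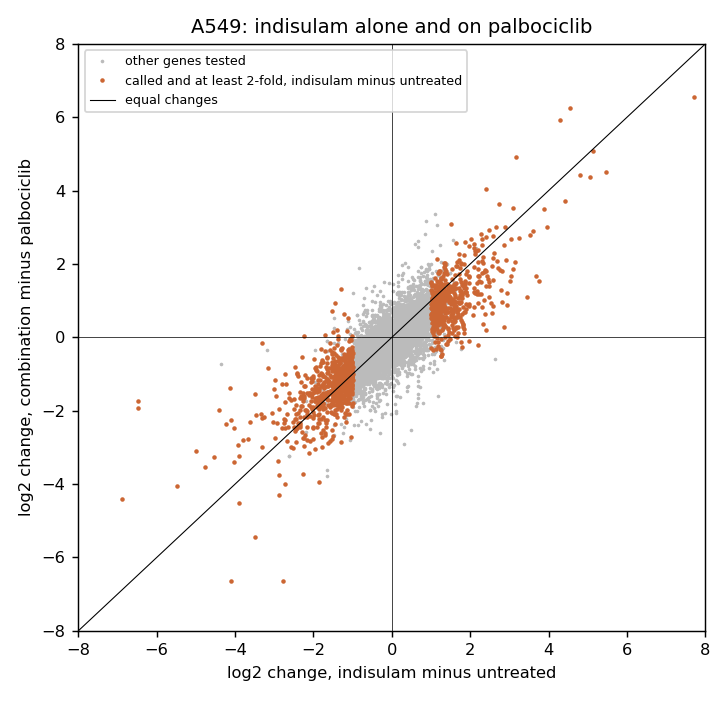
Log2 change of each gene with indisulam against untreated (x axis) and with the combination against palbociclib (y axis) in A549; orange points were called with at least a 2-fold change on the x axis, and the diagonal marks equal changes. Of the 1289 orange genes 97.4% have the same sign on both axes.

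Where both responses differ, the drugs together depart from the sum of their single log2 changes. This departure passed the test for 556 genes (3.53%; 234 above and 322 below the sum), and for 31 (0.197%) by at least 1 on the log2 scale. DESeq2 size factors turned the balance to 336 above and 278 below. The count rested on single libraries, being 123 and 156 without untreated R1 or R2, 87 and 52 without indisulam R1 or R2, 377 and 148 without palbociclib R1 or R2, and 976 and 851 without combination R1 or R2. FAM111B, a protease, changed by -0.14 with indisulam alone and by -1.55 on palbociclib, a departure of -1.41, and CCDC78 (-1.39), EGLN2 (-1.23) and RAB26 (-1.17) followed. On the other side GABPB2 fell by 1.49 alone and by 0.55 on palbociclib (0.94). POMK (0.86) and ELOVL2 (0.78) were next among those named. The origin factor ORC1 rose by 0.45 alone and was at -0.17 on palbociclib, and ORC6 rose by 0.33 alone and was at -0.37 on palbociclib.

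SUM159, which was grown in another medium, allowed the response to be compared between lines. In a fit of all 16 libraries, 17764 genes were tested, 40.6% passed for indisulam in SUM159, and for 15% the response differed between lines, for 1.73% by at least 1 on the log2 scale. Of the 790 genes that fell at least 2-fold in A549, 37.5% differed, and their median was -1.38 in A549 and -0.63 in SUM159. Of the 499 that rose, 8.22% differed, with medians of 1.42 and 0.95. The part that choosing genes by their A549 value has in these gaps was not tested. Pearson's r across genes was 0.46 and Spearman's rho 0.58. CENPI fell by 1.05 in SUM159 (difference 1.29, adjusted p = 8.67e-09 by edgeR), SLC7A11 by 1.33 (difference 0.76), HYOU1 by 0.69 (difference 0.55, adjusted p = 5.39e-06) and HSPA5 by 0.14 (difference 0.65, adjusted p = 5.74e-09). PRPF3 and HNRNPL rose there by 0.36 and 0.43, less than in A549 by 0.88 and 0.81, and PTBP2 rose by 1.38, less by 0.81. BAX was at 0.02 and CCNG1 at 0.42 in SUM159, below A549 by 0.64 and 0.56 (adjusted p = 2.05e-06 and 1.65e-06 by edgeR).

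For other genes the difference between lines did not pass the test. CCNH fell by 1.40 in SUM159 (difference 0.14, adjusted p = 0.486), NCBP1 by 1.09, TYMS by 0.93 (difference 0.12, adjusted p = 0.181) and POLE2 by 1.24 (difference 0.09, adjusted p = 0.71), and RBM39 rose by 1.09 (difference 0.03, adjusted p = 0.77, all by edgeR). The largest differences among protein-coding genes were those of ZFHX4 (-2.56), GULP1 (-2.08), IFI44 (-1.92) and SNAI2 (-1.58), whose response was lower in SUM159, and of C2orf72 (5.02), PAPPA (4.84), BCL2L15 (3.52) and DDC (2.76), whose response was higher. In A549 IFI44 and SNAI2 were under 1 CPM in all 4 libraries, and C2orf72 and PAPPA did not pass the test (0.16 and 0.03).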

How the data were processed

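RNA was sequenced from 4 A549 libraries, 2 untreated and 2 given 3 µM indisulam for 16 h. The files deposited by the authors give, for each library, the raw counts of every Ensembl gene, with no normalization and no pooling of replicates. Reads in no feature or ambiguous between features were listed apart (at most 5.97% and 5.31% of the reads listed in the 4 libraries) and kept out of library sizes and tests. The methods of the study describe stranded poly(A) libraries, paired reads and alignment to GRCh38. The submitters' processing notes name HISAT2 2.2.1 and HTSeq without a role, and the strand setting and annotation release of the counting are not given in the sources used here. Counts of overlapping genes are therefore uncertain. No column of other samples was left unused (0 columns). Of the 58676 identifiers, 58207 were matched to GENCODE release 44 on GRCh38, which supplied symbols, biotypes, overlaps and exon numbers.

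The 8 A549 libraries were fitted together with edgeR 4.0.16 in R 4.3.3, with 1 coefficient per group, filterByExpr, TMM scaling and the quasi-likelihood test. P-values were adjusted by Benjamini and Hochberg over all 15744 genes, with a threshold of 0.05, and standard errors were derived from the F statistics. The difference between lines was an interaction in a fit of all 16 libraries. Total gene counts of 18306636 to 23851384 put 3 counts at 0.126 to 0.164 CPM. Duplicates differed by more than counting error (chi-square per degree of freedom 2.41 untreated and 3.60 with indisulam), so no library was a repeat deposit. Alternatives were other scalings and filters, DESeq2 1.42.0, the replicate number as a block, leaving out each library, the 4 libraries alone, and genes without overlap.

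The 57 gene lists, the members named and the tests were chosen with earlier results of these data known, and no set test was run. Named genes are RBM39 and other genes of the study, the 12 largest increases and decreases among protein-coding genes with at least 5 CPM and a consistent direction in both duplicates (4 and 4 of other biotypes), up to 3 of each direction per list with at least 1 CPM, members of lists of up to 15 genes, and 4 in each direction for the departure and for the difference between lines. RBM23 and DCAF15 count among the first, and the other stress response genes, ATF4, BECN1, CDK7 and the like, where they fall outside, were named after their values were seen. A few genes that the rule takes are not reported here.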

Additional observations from a re-analysis of the deposited data

Results flagged for a closer look

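The indisulam responses of 9 genes named among the largest changes in A549 differed between lines by at least 1 on the log2 scale, by the interaction in edgeR over all 16 libraries, given here as SUM159 minus A549. Among genes that fell in A549, the response was higher in SUM159 for OR51E2 (2.27, adjusted p = 0.000822), CCDC18-AS1 (1.74), CDKL1 (1.54), LINC00707 (1.44), CENPI (1.29), FAM86JP (1.14) and RNF170 (1.02). The SUM159 change of OR51E2 itself, 0.32 ± 0.41 (SE), did not pass the test. Among genes that rose in A549, the response was lower in SUM159 for YY2 (-1.18) and OXTR (-1.10). Of all genes tested in that fit 1.73% passed both limits.

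AMH, the anti-Müllerian hormone, was at 4.91 and 5.07 CPM untreated and at 17.4 and 21.5 CPM with indisulam (1.97). On palbociclib its change was 0.86, a departure of -1.10 (adjusted p = 0.013 by edgeR), and 0.197% of all genes departed as far. AMH overlaps another gene on its own strand, and the part of that gene's reads in this value was not tested.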

How the results depend on the processing

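The number of genes changed by indisulam was 7773 when scaled to total counts (52.0% of them higher, against 47.3% as reported), 7725 with DESeq2 size factors, 7867 without a filter, 7225 with at least 10 counts in every library, 5708 by the DESeq2 Wald test, 8376 with only the 4 libraries compared and between 5903 and 6153 when 1 library was left out, against 7748. Without genes that overlap another gene 2069 of 4351 remained called. The number changed at least 2-fold was 717 with at least 10 counts in every library, 937 by DESeq2, 313 without overlapping genes and between 1112 and 1166 with 1 library left out, against 1289. Of the genes that also passed on palbociclib, 1013 as reported, 656 were found with at least 10 counts and between 848 and 974 with 1 library left out. The departure from the sum, 556 genes, was 998 without a filter, 343 by DESeq2 and between 52 and 976 with 1 library left out. The difference between lines, 2665 genes, was between 1723 (without SUM159 indisulam R2) and 2139 with 1 untreated or indisulam library left out, and 1735 without A549 untreated R2. It was 1975 by the DESeq2 Wald test and between 2447 (no filter) and 2780 (at least 10 counts) with other scalings and filters. Fewer genes were tested with the higher count minimum and without overlaps; the cause of the other shifts was not tested.

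The replicate numbers in the labels were examined for pairing. After group means were removed, libraries with the same number correlated at 0.01 between untreated and indisulam and at -0.11 between palbociclib and combination, so the numbers were not taken as pairs. With the number as a block the count was 7613, that past 2-fold 1266, that on palbociclib 994, the departure 470 and the difference between lines 2531.

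Over 173 named genes and 10 alternatives each, 1705 of 1730 values kept their direction and their side of the threshold. The calls of ATF4, ORC3, PPP1R15A and WARS1 were lost as given in the report, and for PPP1R15A also by DESeq2 (0.22, adjusted p = 0.102). Without a filter DCAF15 (0.24) and SLC3A2 (0.11) passed, and DCAF15 (0.26) also with the block. That was the only call among the 173 genes that the block changed. The sign turned with 1 library left out in genes that did not pass the test: DDIT3 (-0.014 and -0.0718, up to 0.122), ERN1 (0.0305, down to -0.102), PAPPA (-0.0364 and -0.0125), PHGDH (0.0218, down to -0.127), SARS1 (0.0296 and 0.0146, down to -0.0188), SYVN1 (0.0333) and YARS1 (0.00256, down to -0.0658). That of SARS1, at 0.00 as reported, also turned when scaled to total counts (0.0282) and with at least 10 counts (0.00291). Under the 2 other scalings 104 of 114 list medians moved by less than the typical gap between duplicates in the median of that list, and 10 by more. Calls within lists were not compared. The medians of the lists of proteasome subunits, translation initiation factors, antigen processing genes and the Casella senescence set, all within 0.02 of zero, changed sign. Of the 20 exon-number shares under other settings, 15 moved past their limit.

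At this depth a gene under about 0.164 CPM could not be seen, and exon use, intron retention and protein were not measured. The duplicates are technical, so nothing here speaks for the spread between cultures.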
